A study of Rattus norvegicus with 12 samples.

Results

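Laminins, nidogens and perlecan were measured in F111 cells, a rat fibroblast line of the Fischer strain. Colony cells were NA16 cells, F111 cells held off any surface for 16 h, that had then been kept in soft agar for 7 days; the colonies were freed from the agar and left on a dish for a short period to attach before they were processed. A16 cells were F111 cells that had been detached with trypsin, plated on plastic and collected 16 h after plating. Both groups were kept in medium with serum. The members are the 10 genes Lama2, Lama3, Lama4, Lama5, Lamb1, Lamb2, Lamc1, Nid1, Nid2 and Hspg2, taken as every probe set of the rat array whose only gene symbol is one of these, which gave 15 of the 31042 probe sets tested and 10 of 14217 genes. Of the members, 6 genes had 1 probe set, 3 had 2 and 1 had 3, and where a gene had several, the one with the highest mean log2 value over the 6 arrays stands for the gene.

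Each group had 3 arrays, biological replicates 1 and 2 and a technical replicate whose labels give no biological number. For each group the mean of the log2 values of replicate 1 and of the technical array was taken as 1 culture. Replicate 2 was the other (n = 2 in each group). The limma p-values, SEs and intervals rest on the spread between these cultures, drawn for each probe set toward that of all probe sets. Of 6.76 total degrees of freedom, 4.76 came from all probe sets. No other source of spread is measured. For Colony replicate 2, 1 label field names tumour formation and the others name colony cells, and it was kept as Colony. Colony cells had spent time in agar, in suspension and in renewed attachment, the last for a shorter time than A16 cells. The paper also reports a different karyotype, with a derivative chromosome in all colony-derived cells and in a minority of A16 cells, and proposes clonal selection. These differences between the groups cannot be told apart. Values are RMA intensities, in which the authors' software joined the probes of a probe set into 1 background-corrected, normalised brightness. They are comparable between arrays for 1 probe set, not between probe sets. A call means an adjusted p under 0.05 in the fit of all probe sets with limma and a fold change over 2. With 2 cultures in each group the smallest p that an exact two-sided permutation test of a single gene can give is 0.333. The medians of the 6 arrays lay between 97.6 and 100.9, and the log2 values of 2 arrays differed with an SD of 0.17 to 0.33 within a group and of 0.67 to 0.76 between groups.

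Basement membranes are thin sheets of matrix beneath epithelia and endothelia and around muscle, nerve and fat cells. Laminins, their founding component, are trimers of an α, a β and a γ chain that assemble inside the cell and are secreted. They bind integrins and dystroglycan through the α chain, and many of them, but not all, join into a network at the cell surface. Nidogens bind the γ chain and tie this network to that of collagen IV. Perlecan, a large heparan sulphate proteoglycan encoded by Hspg2, binds both networks and holds growth factors. Fibroblasts have no basement membrane of their own but make several of its components.

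The members did not move as a block. In Colony cells the laminin α4 chain (Lama4), nidogen-1 (Nid1) and perlecan (Hspg2) fell in the probe set that stands for the gene, with log2 fold changes of -3.55 for Lama4, -2.12 for Nid1 and -1.26 for Hspg2, while the other 7 genes, with Nid2 and the β chains Lamb1 and Lamb2 among them, were not called. Over all probe sets, 5 of the 15 were called lower in Colony cells and 0 higher, where 5.81% of all probe sets were called lower and 4% higher. By the probe set that stands for the gene, 3 of 10 members were called lower and 0 higher, where 4.75% of all genes were called lower and 4.36% higher. The fourth gene with a lower probe set was Lamc1, whose 2 probe sets gave different calls. The median log2 fold change of the 10 genes was -0.04, and that of all genes 0.05. The arrays of the groups did not overlap for 6 member probe sets that were lower on every Colony array, namely the 5 called ones and the other of Lamc1, and for 2 that were higher, 1 of Lama2 and 1 of Lama5, where 20.5% of all probe sets were lower and 25.4% higher in this way.

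**Figure D1:**
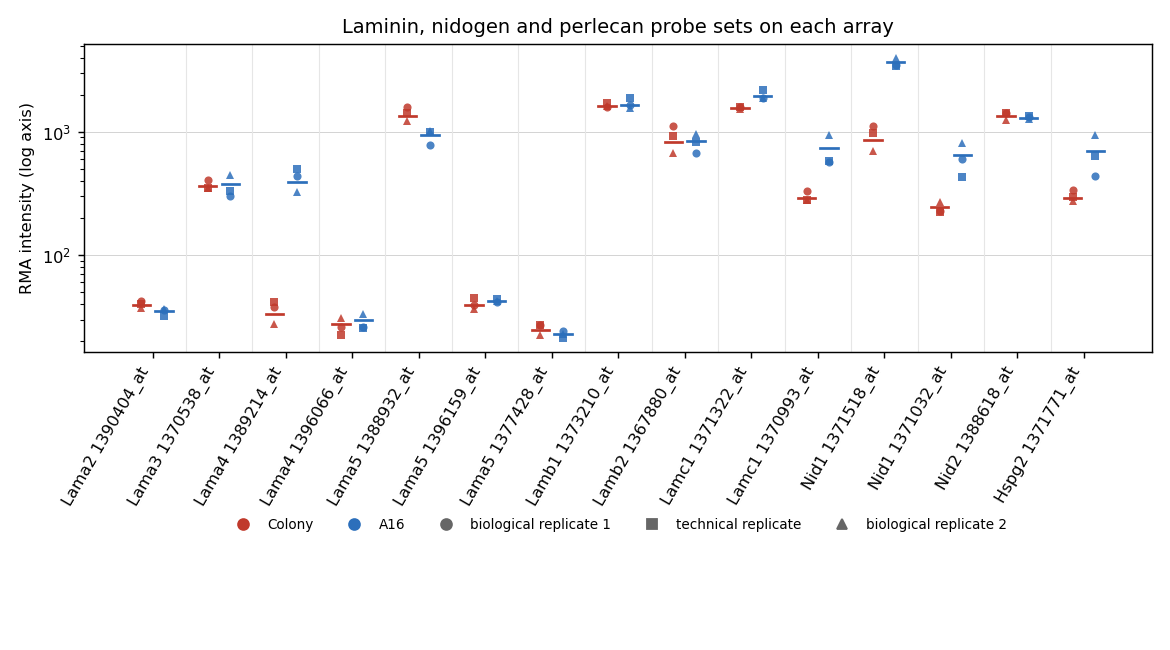
RMA intensity (log axis) of the 15 member probe sets on each array, with Colony (red) left of A16 (blue); symbols mark the array and bars the mean of n = 2 cultures on the log2 scale. Lama4 1389214_at was between 27.9 and 41.8 on the Colony arrays and between 324.1 and 498.4 on the A16 arrays, whereas Lamb1 and Nid2 overlapped.

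The change of Lama4 was the largest among the members. Lama4, the α chain of laminins made by mesenchymal cells and in the walls of blood vessels, had RMA intensities of 37.8, 41.8 and 27.9 on the Colony arrays of replicate 1, the technical replicate and replicate 2 in probe set 1389214_at, against 442, 498 and 324 on the A16 arrays in the same order. Every Colony array was far below every A16 array. The measured intensity fell 11.7-fold (log2 fold change -3.55 ± 0.24, SE, n = 2; adjusted p = 0.000153, limma), with a 95% interval of -4.12 to -2.99. In Colony cells this probe set lay at percentile 18.7 of all probe sets, about as dim as the second probe set of Lama4, so the fold and its interval describe intensities and the fold of the transcript may be larger. In PLIER, the other summary the authors deposited, the same probe set had 24.1, 20.6 and 20.4 on the Colony arrays and 457, 501 and 373 on the A16 arrays, close to the lowest value that PLIER gave any probe set, 16.0, in the Colony group. The log2 fold change was -3.56 with 16 added to the PLIER values and -4.31 with nothing added. A second probe set of Lama4, 1396066_at, was dim in both groups, with 26.2, 22.5 and 31.1 on the Colony arrays and 26.2, 25.9 and 33.6 on the A16 arrays, and was not called with RMA (log2 fold change -0.11, adjusted p = 0.753). With PLIER it was called lower (log2 fold change -1.02, adjusted p = 0.0325, on log2(value + 16)), so the summaries disagreed about a probe set that RMA placed at percentile 12.1 of all probe sets in Colony cells and 16.3 in A16 cells.

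Nidogen-1, which joins laminin to collagen IV, was lower with both of its probe sets. Nidogen-2, which shares binding partners with it, was not called. Nid1 1371518_at had 1106, 979.8 and 699.5 on the Colony arrays, against 3506, 3386 and 3967 on the A16 arrays. The groups were well apart, and the fall was 4.33-fold (log2 fold change -2.12 ± 0.21, SE, n = 2; adjusted p = 0.000771, limma), with a 95% interval of -2.61 to -1.62. Nid1 1371032_at had 228, 222 and 270.1 on the Colony arrays, against 601, 430.5 and 819 on the A16 arrays (log2 fold change -1.39, adjusted p = 0.00694). With PLIER the values of 1371032_at overlapped, at 563, 446 and 289.9 on the Colony arrays and 491, 442 and 717 on the A16 arrays, and it was not called (log2 fold change -0.58, adjusted p = 0.245), while 1371518_at remained called with PLIER (log2 fold change -1.74). Nid2 1388618_at had 1418, 1422 and 1249 on the Colony arrays and 1307, 1342 and 1263 on the A16 arrays. Its Colony and A16 arrays overlapped, and its log2 fold change of 0.04 had a 95% interval of -0.28 to 0.37. Whether the changes of Nid1 and Nid2 differed was not tested.

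Perlecan was lower on every Colony array, by an amount that moved with the cultures used. Hspg2 1371771_at had 337, 294 and 272 on the Colony arrays, against 441, 631 and 937 on the A16 arrays. The Colony arrays lay close together and the A16 arrays were spread over more than their distance from the highest Colony array. The fall was 2.40-fold (log2 fold change -1.26 ± 0.26, SE, n = 2; adjusted p = 0.0153, limma), with a 95% interval of -1.89 to -0.63. Without A16 replicate 2, the brightest array, the log2 fold change was -0.85, without Colony replicate 2 it was -1.16 with an adjusted p of 0.0638, and in neither case was it called. It was not called either where the technical arrays were averaged with replicate 2 (log2 fold change -0.91) or left out (log2 fold change -1.08, adjusted p = 0.0788).

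To show what lies before the genes that fell, the 250 bases before the annotated start are given for Lama4, Nid1 and Hspg2, and beside them those of Lama3, which was not called and was chosen because of its motifs, after its values were seen. Of the 10 members, 8 had such a window in RefSeq (build GRCr8). Capitals mark every match, on either strand, to 7 motifs. They are the GC box, spelled GGGCGG, the box bound by NF-Y, spelled CCAAT, the TATA box, spelled TATAAA, the AP-1 motif, spelled TGANTCA, the TEAD motif, spelled GGAATG, the core of the hypoxia response element, spelled ACGTG, and the CArG box. The TATA box and the CArG box can overlap, and so can the GC box and the TEAD motif.
Lama4 (chr20:43946648-43946897, + strand): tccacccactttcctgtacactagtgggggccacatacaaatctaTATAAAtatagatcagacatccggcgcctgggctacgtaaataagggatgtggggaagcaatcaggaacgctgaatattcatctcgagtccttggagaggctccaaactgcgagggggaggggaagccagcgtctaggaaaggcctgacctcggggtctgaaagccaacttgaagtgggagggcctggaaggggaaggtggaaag
Nid1 (chr17:93069036-93069285, + strand): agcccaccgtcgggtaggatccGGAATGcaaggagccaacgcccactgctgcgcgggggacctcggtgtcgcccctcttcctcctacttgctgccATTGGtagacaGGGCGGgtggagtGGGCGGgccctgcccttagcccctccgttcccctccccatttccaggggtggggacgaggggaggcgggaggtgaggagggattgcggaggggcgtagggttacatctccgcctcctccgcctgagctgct
Hspg2 (chr5:154960596-154960845, + strand): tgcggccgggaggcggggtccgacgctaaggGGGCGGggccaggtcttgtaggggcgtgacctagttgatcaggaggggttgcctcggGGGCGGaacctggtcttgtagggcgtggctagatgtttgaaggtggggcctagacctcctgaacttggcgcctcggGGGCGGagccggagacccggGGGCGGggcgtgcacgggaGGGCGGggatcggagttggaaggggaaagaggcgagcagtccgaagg
Lama3 (chr18:3952517-3952766, + strand): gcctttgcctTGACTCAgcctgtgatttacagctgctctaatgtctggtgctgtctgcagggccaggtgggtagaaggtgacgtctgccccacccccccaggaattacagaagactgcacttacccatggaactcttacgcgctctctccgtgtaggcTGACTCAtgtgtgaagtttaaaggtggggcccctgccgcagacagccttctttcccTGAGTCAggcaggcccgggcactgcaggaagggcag

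No motif was held by all 3 windows of the genes that fell. Lama4 held 1 match, a TATA box whose first base lay 205 bases before the start, which 12.9% of the 33469 RefSeq windows of this length also held, and it held no GC box. Nid1 held 2 GC boxes, 1 CCAAT box and 1 TEAD motif, and Hspg2 held 5 GC boxes. A GC box was in 30.5% of all windows, a CCAAT box in 34% and a TEAD motif in 12.1%. Lama3 held 3 AP-1 motifs, at 240, 92 and 36 bases before the start, a motif that 6.34% of all windows held at least once. Among the other members Lama5 held 4 GC boxes, Lamc1 held 5 GC boxes and 1 TEAD motif, and Lamb1 held 2 GC boxes. Lama2 held 1 GC box, 1 CCAAT box and 1 CArG box, the last of which 1.5% of all windows held, and none of the 8 held ACGTG, which 16.6% of all windows held. G and C made up 53.2% of the Lama4 window, 68% of that of Nid1 and 69.2% of that of Hspg2, against a median of 51.2% over all windows.

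The 2 probe sets of Lamc1, the γ1 chain found in most laminins, were both lower on every Colony array and differed in size. Lamc1 1371322_at, the brighter one, had 1602, 1602 and 1517 on the Colony arrays, against 1892, 2188 and 1874 on the A16 arrays. Its log2 fold change of -0.33 (adjusted p = 0.133) was not called, with a 95% interval of -0.64 to -0.01. Lamc1 1370993_at had 332, 281 and 280.2 on the Colony arrays, against 565, 579 and 944 on the A16 arrays, and was called lower (log2 fold change -1.33 ± 0.24, SE, n = 2; adjusted p = 0.00811, limma). As with Hspg2, its brightest array was A16 replicate 2, without which the log2 fold change was -0.97 and it was not called. The files do not say which part or form of the transcript each probe set reads.

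Among the β chains, Lamb1, the partner of γ1 in most laminins, had 1580.1, 1699 and 1614 on the Colony arrays, against 1661, 1872 and 1551 on the A16 arrays. The arrays overlapped, and the log2 fold change of -0.02 had a 95% interval of -0.35 to 0.30. Lamb2, the β chain of laminins at the neuromuscular junction and the kidney filter, had 1107, 928 and 668 on the Colony arrays, against 671, 822 and 953 on the A16 arrays. Its order over the arrays was opposite in the groups, since replicate 2 was the dimmest Colony array and the brightest A16 array, and its log2 fold change of -0.03 had a wider 95% interval, from -0.57 to 0.51.

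Of the other α chains none was called. Lama5, the α chain of many adult basement membranes, had 1579, 1414 and 1225 on the Colony arrays in 1388932_at, its brightest probe set, against 776, 1005 and 1014 on the A16 arrays. Every Colony array was above every A16 array, yet the difference of 0.52 on the log2 scale (95% interval 0.14 to 0.89) had an adjusted p of 0.0584 and lay under the fold threshold. With PLIER the adjusted p of this probe set was 0.0157 and the log2 fold change, 0.75, lay under the fold threshold as well. The other probe sets of Lama5 were dim with RMA. Of these, 1377428_at had 27.3, 27.2 and 22.3 on the Colony arrays and 24.4, 21.4 and 22.7 on the A16 arrays with RMA, and was not called, whereas PLIER gave 64.4, 73.5 and 92.2 on the Colony arrays and 23.9, 35.6 and 29.7 on the A16 arrays and called it higher (log2 fold change 1.07, adjusted p = 0.00692). Probe set 1396159_at had 39.4, 44.7 and 36.9 on the Colony arrays and 41.6, 43.9 and 42.6 on the A16 arrays (log2 fold change -0.12, adjusted p = 0.612), with overlap. Lama3, an α chain of the laminins that anchor epithelia, had 405, 353 and 351 on the Colony arrays, against 304, 333 and 444 on the A16 arrays, so that the groups overlapped (log2 fold change -0.05, 95% interval -0.48 to 0.39). Lama2, the α chain of the membrane around muscle fibres, was dim in both groups with RMA. It had 42.6, 40.2 and 37.5 on the Colony arrays and 36.2, 32.3 and 36.3 on the A16 arrays (log2 fold change 0.16, adjusted p = 0.46, limma). PLIER gave it 344, 119 and 107 on the Colony arrays and 178, 235 and 129 on the A16 arrays, with overlap.

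**Figure D2:**
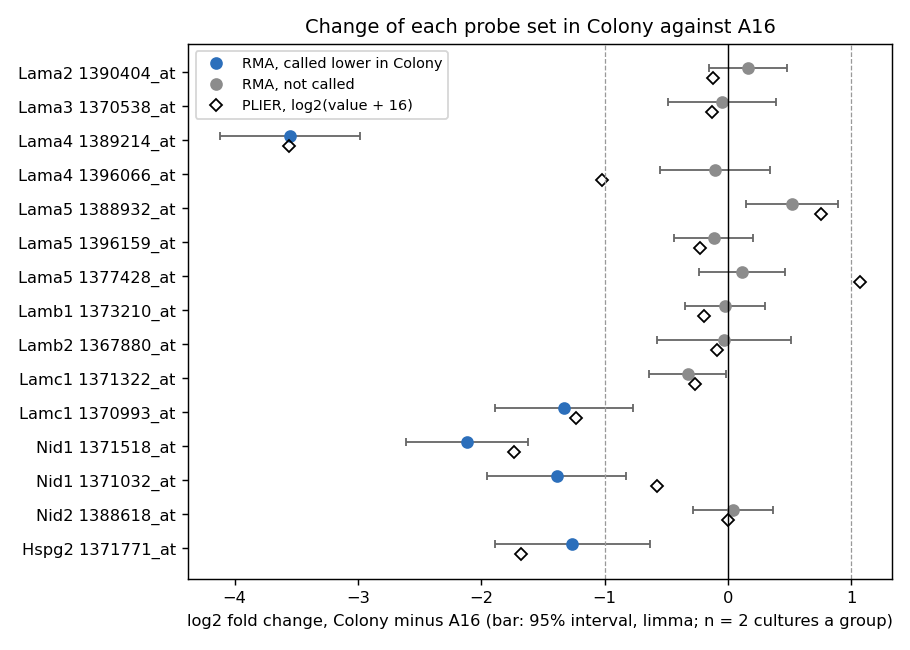
Log2 fold change of each member probe set, Colony minus A16, from RMA with its 95% interval (filled circles, limma, n = 2 cultures a group) and from PLIER as log2(value + 16) (open diamonds); dashed lines mark the fold threshold of 2. The 5 called probe sets all lie left of 0, and RMA and PLIER nearly coincide for Lama4 1389214_at at -3.55 and -3.56. They lie apart for the dim probe sets Lama4 1396066_at and Lama5 1377428_at. RMA and PLIER also lie apart for Nid1 1371032_at, which is not dim, at -1.39 and -0.58.

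PLIER called 5 of the 15 member probe sets lower and 1 higher, where it called 6.16% of all probe sets lower and 3.87% higher. RMA and PLIER shared 4 of the lower calls, namely Lama4 1389214_at, Nid1 1371518_at, Lamc1 1370993_at and Hspg2.

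The counts of this and the following lists stand beside 4.75% of all genes called lower and 4.36% called higher, with a median log2 fold change of 0.05. Of the 5 other laminin chains listed, 3 were measured, of which 1 was lower, 0 were higher and the median log2 fold change was -0.02. Lamb3, the β chain that pairs with the Lama3 product in the laminin of epithelial anchoring sites, had 77.4, 68.3 and 66.8 on the Colony arrays, against 274, 311 and 296 on the A16 arrays, and fell 4.22-fold (log2 fold change -2.08, adjusted p = 0.000118, limma). The arrays were far apart and tightly grouped. Lama1, the α chain of early embryos, had 79.9, 64.2 and 76.4 on the Colony arrays and 54.3, 55.0 and 46.2 on the A16 arrays, with a log2 fold change of 0.56 under the fold threshold, and Lamc3 had a log2 fold change of -0.02.

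Of 20 measured genes of other basement membrane proteins, 7 were lower in Colony cells, 2 were higher and 11 were not called, with a median log2 fold change of -0.02. Col4a1, a chain of the most common collagen IV, had 1073, 956 and 890.3 on the Colony arrays, against 1994, 2599 and 3733 on the A16 arrays (log2 fold change -1.62), whereas Col4a5, a chain of the collagen IV of the kidney filter, had 327, 326 and 401 on the Colony arrays, against 65.6, 59.5 and 48.8 on the A16 arrays (log2 fold change 2.71). Col4a1 was chosen after its values were seen. The other measured chains of collagen IV, Col4a2 (log2 fold change -1.06, adjusted p = 0.158, limma), Col4a4 (0.02) and Col4a6 (0.12), were not called. Col4a1 and Col4a5 moved in opposite directions. Sparc, which binds collagen (log2 fold change -2.38), agrin, the other large heparan sulphate proteoglycan of basement membranes (Agrn, -2.02), Tinagl1 (-1.93) and Pxdn, the peroxidase that crosslinks collagen IV (-1.78), were also lower. The value of Sparc moved with the A16 culture used, at -1.70 without A16 replicate 2 and -3.06 without A16 replicate 1, and it was called in both cases. Smoc2, a relative of Sparc, was higher, with 4472, 5383 and 5147 on the Colony arrays, against 637, 631 and 560.3 on the A16 arrays (log2 fold change 3.08). Its other probe sets were not called, with log2 fold changes of 0.08 and 0.80.

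**Figure D3:**
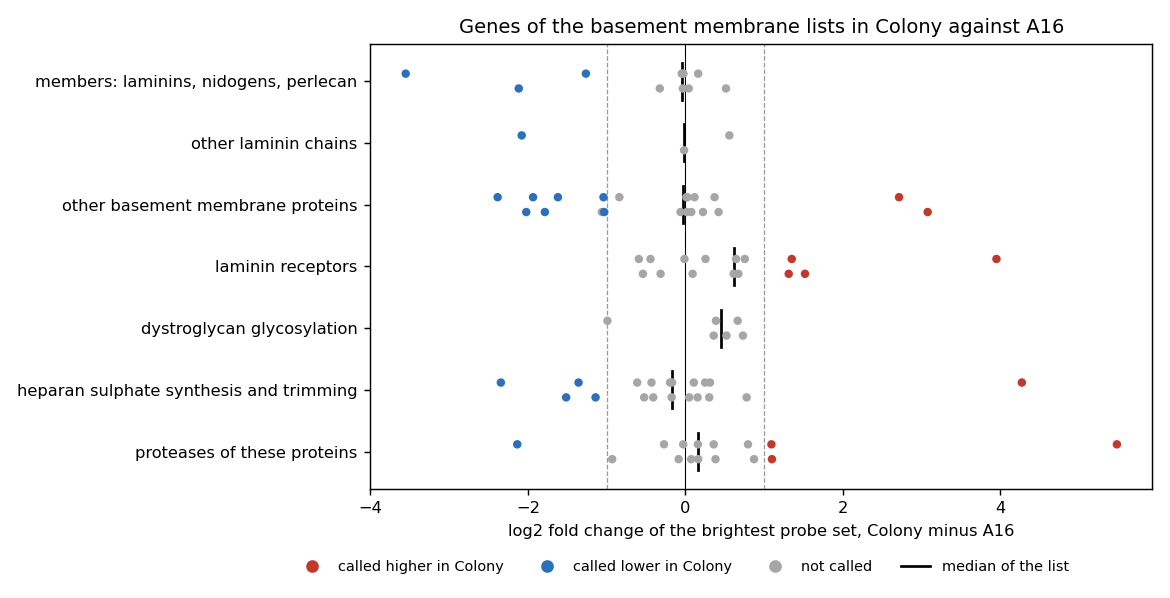
Log2 fold change, Colony minus A16, of the brightest probe set of each member gene and of each measured gene of the 6 lists, in red where called higher, blue where called lower and grey where not called; black bars are list medians and dashed lines the fold threshold of 2. The called laminin receptors lie to the right and the called members to the left.

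Of 15 measured genes listed as receptors of laminin and perlecan, 4 were higher in Colony cells, 0 lower and 11 not called. The median log2 fold change was 0.61. Sgcb, Sgce and Cd151 in this list are membrane partners of such receptors, so the count and median are not of receptors alone. Itgb4, the β4 integrin subunit, whose only partner is α6 and which binds laminin at epithelial anchoring sites, had 4789, 3284 and 2299.6 on the Colony arrays, against 197, 154 and 219 on the A16 arrays, a rise of 15.5-fold (log2 fold change 3.95 ± 0.26, SE, n = 2). Its partner Itga6 had 3891, 4566 and 4573 on the Colony arrays, against 1763, 1668 and 1369.6 on the A16 arrays (log2 fold change 1.52), although its 3 other probe sets were not called and averaging them all gave a log2 fold change of 0.30. Itga3, which pairs with the β1 subunit to bind laminin, had 7696, 5335 and 3592 on the Colony arrays, against 1609, 1547 and 2244 on the A16 arrays (log2 fold change 1.35), and was not called without Colony replicate 1 (log2 fold change 0.93). Dag1, the precursor of dystroglycan, had 3720.0, 3489 and 3101 on the Colony arrays, against 1103, 1280.0 and 1526 on the A16 arrays (log2 fold change 1.31). A dimmer probe set of Dag1 was called lower (log2 fold change -1.80, adjusted p = 0.0345) and averaging its probe sets gave a log2 fold change of -0.17, so the direction of Dag1 depends on the probe set.

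Among the genes of the receptor list not called, Sgcb (log2 fold change 0.75), Sdc1 (0.67), Itga7 (0.64) and Cd151 (0.61) were above 0. Their adjusted p-values were under 0.05 and their changes under the fold threshold. Sdc2 (log2 fold change -0.54, adjusted p = 0.0318) was below 0 in the same way. Sdc4 had a log2 fold change of -0.59 (adjusted p = 0.141), Itga1 one of -0.44 (adjusted p = 0.171) and Itgb1, the partner of most laminin-binding α subunits, one of 0.25. For the syndecans a second probe set was called, with log2 fold changes of 1.36 for Sdc1 and -1.31 for Sdc2. None of the 6 measured enzymes that build the laminin-binding sugar of dystroglycan was called, and their median log2 fold change was 0.45. Rxylt1, chosen after its values were seen, lay just under the fold threshold with a log2 fold change of -0.99. Of these 6 enzymes, 1 was called lower with 6 separate arrays, with the technical arrays averaged with replicate 2, with culture as a random block and without A16 replicate 2.

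Of 19 measured enzymes that make or trim heparan sulphate, the sugar that perlecan carries, 4 were lower, 1 was higher and 14 were not called, with a median log2 fold change of -0.17. Hs3st1, a sulphotransferase that acts late on the chain, had 799, 1304 and 1489 on the Colony arrays, against 64.4, 84.9 and 55.1 on the A16 arrays, a rise of 19.3-fold (log2 fold change 4.27). Both enzymes that remove sulphate outside the cell were lower, Sulf1 (log2 fold change -2.34) and Sulf2 (-1.51). Hs6st2 (-1.36) and the chain-building enzyme Ext1 (-1.14) were lower too. The other probe set of Sulf1 was not called (log2 fold change 0.13, adjusted p = 0.626, limma). For Ext1 another probe set had a log2 fold change of 0.67 and averaging its probe sets gave -0.23, and it was not called without A16 replicate 2 (log2 fold change -0.93).

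Of 15 measured proteases known to cut laminin, nidogen or perlecan, 3 were higher, 1 was lower and 11 were not called, with a median log2 fold change of 0.16. Mmp3, stromelysin 1, had 1449, 1542 and 1844 on the Colony arrays, against 43.4, 48.2 and 30.3 on the A16 arrays (log2 fold change 5.48). The A16 values lay at percentile 23.9 of all probe sets, so the size of this difference is uncertain, and PLIER with 16 added gave 4.79 (27.7-fold, against 44.6-fold with RMA). The paper's qPCR gave Mmp3 as lower in Colony than in A16 cells, opposite to the arrays, so its direction depends on the method. Htra1, a secreted serine protease (1.10), and Mmp12 (1.09) were higher by less, and Htra1 was under the fold threshold without A16 replicate 2 (0.99) and with PLIER (0.94). Mmp14, which sits in the cell membrane, had 725, 726 and 905 on the Colony arrays, against 3237, 3791 and 3615 on the A16 arrays (log2 fold change -2.13). The other probe set of Mmp14 was not called (log2 fold change -0.93, adjusted p = 0.0692, limma).

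**Figure D4:**
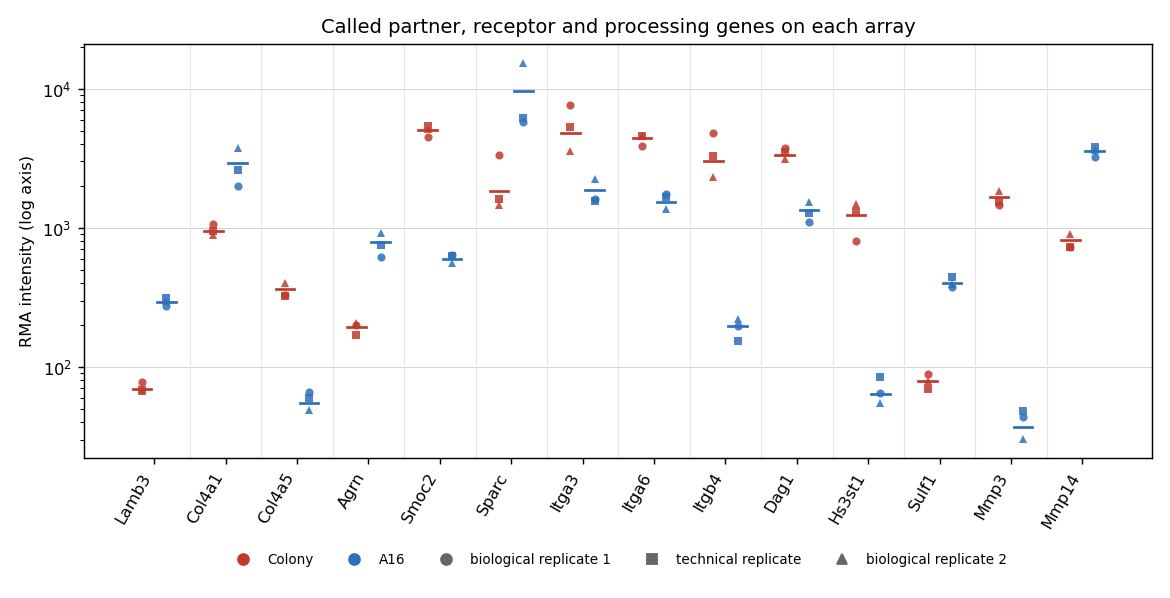
RMA intensity (log axis) on each array of called genes of the lists, with Colony (red) left of A16 (blue), symbols for the arrays and bars for the mean of n = 2 cultures on the log2 scale. Itgb4, Hs3st1 and Mmp3 were higher and Lamb3, Agrn, Sulf1 and Mmp14 lower on every Colony array.

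Most markers of cell types were not called, and each list's median log2 fold change is given beside the 0.05 of all genes. The summed intensities follow the brightest probe set of a list and are no measure of a share of cells. Of 10 fibroblast markers, 3 were lower (Col1a1, Col3a1 and Thy1) and 0 higher, with a median of 0.01, and their summed intensity was 56114 to 60743 on the Colony arrays and 72982 to 83723 on the A16 arrays. Vim and S100a4 were bright on every array, while Dcn lay between 23.6 and 28.1 and Fap between 41.4 and 50.6, both dim. Of 8 muscle markers, 2 were lower, with a median of 0.07 and sums of 947 to 1002 on the Colony arrays and 5723 to 6849 on the A16 arrays, most of the A16 sum being Tagln. Tagln, a contractile protein of smooth muscle and myofibroblasts, had 54.0, 47.5 and 43.0 on the Colony arrays, against 4131, 4549.9 and 4179 on the A16 arrays. Of 8 epithelial markers, Krt8 was higher (log2 fold change 2.13) and the other 7 were not called, with a median of 0.05 and sums of 3255 to 4011 on the Colony arrays and 1003 to 1106 on the A16 arrays. Most of these sums was Krt8, with 2891 to 3668 on the Colony arrays and 669 to 794 on the A16 arrays. Of 8 macrophage and leukocyte markers, Csf1r was higher (log2 fold change 4.01, its A16 values being dim) and the other 7 were not called, with a median of 0.15, Ptprc lying between 34.7 and 42.2 on all arrays, with sums of 1629 to 1720.0 on the Colony arrays and 1235 to 1422 on the A16 arrays. None of the 7 endothelial markers measured, with a median of 0.17 and sums of 278 to 339.8 on the Colony arrays and 264 to 277 on the A16 arrays, and none of the 4 Schwann and perineurial markers, with a median of 0.10 and sums of 235 to 261 on the Colony arrays and 219.6 to 270.2 on the A16 arrays, was called. The part of such cells, or of a shift in the makeup of the culture, in the changes of Lama4, Nid1 and Hspg2 was not tested, and in bulk RNA fewer cells that make a transcript and less of it per cell cannot be told apart.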

How the data were processed

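RNA of Colony and A16 cells was hybridised by the authors to 6 Affymetrix rat expression arrays, 3 per group. They processed the scanned images with GeneChip Operating Software, summarised every array in Avadis with RMA and with PLIER, whose versions the sources used here do not give, and deposited both summaries as linear intensity (RMA 11.6 to 25775, PLIER 16.0 to 14687). The labels and the supplementary methods give different amounts of RNA for labelling. Scan dates and slides were not found in the labels, so no batch could be set. NA16 and tumour arrays were not used here.

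The table has 31099 probe sets, of which 57 are controls and stayed out of every fit. Log2 of RMA intensity was taken with nothing added, the technical array averaged with biological replicate 1, and all 31042 probe sets were fitted with limma 3.58.1 (lmFit, then eBayes) under R 4.3.3 (total degrees of freedom 6.76), with Benjamini-Hochberg adjustment over all of them and no filter on dim values. Intervals are 95% intervals of this fit. Replicate numbers give no pairing in the labels. The array annotation gave 20826 probe sets 1 symbol, 436 several and 9780 none, and only the first were named. Symbols were updated for 20758 by gene identifier and 2 by accession (RefSeq, GRCr8). The members, lists and tests were chosen with earlier results of these data known. Every member probe set was to be named, and of each list up to 4 called genes per direction by size. All laminin chains and receptors were open to naming. Col4a1, Col4a2, Col4a4, Col4a6, Rxylt1 and the markers that were not called lie outside this rule. The fit was also run on simulated cultures with known changes and independent normal spread, whose outcome is not given here. Such data cannot test the use of the technical arrays or shifts of a single culture. The alternatives were PLIER, other uses of the technical arrays, a replicate block, a filter on dim probe sets, another scaling, the mean of a gene's probe sets, the methods' t-test, leaving out each culture, and no fold threshold. Figures were drawn with matplotlib 3.10.9 in Python 3.11.15.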

Additional observations from a re-analysis of the deposited data

How the results depend on the processing

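Lama4 1389214_at and Nid1 1371518_at were called lower under every limma alternative run on single probe sets, with log2 fold changes of -4.31 to -3.28 and of -2.40 to -1.74. With the replicate block 3 member genes and 5 member probe sets were called lower, as without it, and 1867 probe sets of all were called lower and 1254 higher. The replicate numbers share only a label (correlation of the deviations -0.15), and with the numbers crossed, an alternative chosen after seeing the data, 1879 were lower and 1256 higher. The methods' t-test on 2 cultures per group called 0 member genes and 0 member probe sets after Benjamini-Hochberg adjustment, 0 of all probe sets lower and 0 higher, and 2 member probe sets lower at an unadjusted p. Without the fold threshold 3511 of all probe sets were lower and 3545 higher. PLIER, with or without 16 added, called 1 member probe set higher. Leaving out each culture gave 3 to 5 member probe sets called lower, with 3 without A16 replicate 2, which left 1 A16 culture.

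Of the 10 member probe sets not called, 7 changed sign under at least 1 alternative, and the cause was not tested; Lama5 1388932_at, Lama5 1396159_at and Lamc1 1371322_at kept theirs. Among other genes Lamc3 and Dag1 changed sign. With PLIER the log2 fold change of Lama2 was -0.12 (with 16 added) and -0.15, and that of Lamc3 0.17 and 0.18. With 6 separate arrays Lama3 had 0.0520 and Lamb2 0.13, with the technical arrays averaged with replicate 2 these were 0.14 and 0.28, without the technical arrays 0.0366 and 0.11, and with culture as a random block 0.0049 and 0.0517. Leaving out 1 culture at a time gave Lama3 -0.29 to 0.19, Lama4 1396066_at -0.29 to 0.0770, Lama5 1377428_at -0.0313 to 0.26, Lamb1 -0.12 to 0.0678, Lamb2 -0.33 to 0.27, Nid2 -0.0506 to 0.13 and Lamc3 -0.085 to 0.0528. The mean of all probe sets of Dag1 gave -0.17 through its lower probe sets. Dim values limit what the arrays can show: 5 member probe sets, Lama4 1389214_at among them, lay below the 25th percentile of all probe sets in Colony cells, and 3 in A16 cells.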
